A study of Mus musculus with 4 samples.

Results

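Emx1, Emx2, Otx1, Otx2, Six3, Six6, Dlx1, Dlx2 and En2 encode homeodomain transcription factors that pattern the forebrain and midbrain, and their transcripts were followed in 4 RNA-seq libraries of mouse neural tube. The 9 genes were taken by symbol from 24971 gene symbols, and all 9 had at least 1 count in at least 1 library. RNA came from C57BL/6 embryos at E12.5, from neural tubes either wild type (WT) or labelled Lbx1Δ/Δ, and tubes of one genotype and one litter were combined into each pool. There were 2 libraries per genotype, numbered 1 and 2 in the labels, and neither what a number stands for, nor how many tubes a pool held, nor which part of Lbx1 was deleted is given in the sources used here. Lbx1 is a homeobox gene of dorsal spinal interneurons. WT libraries 1 and 2 had 819 and 1379 counts of it, and the pools labelled Lbx1Δ/Δ had 1946 (number 1) and 6520 (number 2). The targeted gene was thus higher in the libraries labelled mutant, and every direction below is between libraries as labelled. Library totals were 16853984 to 20579803 counts. Levels are given as CPM, each count scaled to the total of its library. Where a library had 0 counts, the limit that 3 counts set was 0.146 to 0.178 CPM, which covers counting error only.

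The anterior neural tube is divided by nested domains of homeobox gene expression. Otx genes mark the forebrain and midbrain as far back as the isthmus, En genes the midbrain and anterior hindbrain, Six3 and Six6 the anterior forebrain, hypothalamus and eye, Emx genes the dorsal telencephalon, and Dlx genes the ganglionic eminences and their GABAergic neurons. The spinal cord behind them is marked by Hox genes. Several of these factors also act outside the brain: Emx2 in the urogenital ridge, Dlx1 and Dlx2 in the mesenchyme of the pharyngeal arches, and Six3 and Six6 in the eye.

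The upstream sequences of Emx2, Dlx1 and Dlx2 are shown because these genes held most of the counts and each has a neighbour that was measured beside it. Each is the 250 bases before the RefSeq start of the gene in build GRCm38.p6, 5′ to 3′ on the gene's strand. Emx2 lies at chr19:59458440-59458689 on the plus strand, and the capitals mark the 54 bases between its start and that of Emx2os, a noncoding RNA transcribed away from it on the opposite strand. Dlx1 lies at chr2:71529195-71529444 on the plus strand and Dlx2 at chr2:71546755-71547004 on the minus strand, and in both the capitals mark CG dinucleotides.
Emx2: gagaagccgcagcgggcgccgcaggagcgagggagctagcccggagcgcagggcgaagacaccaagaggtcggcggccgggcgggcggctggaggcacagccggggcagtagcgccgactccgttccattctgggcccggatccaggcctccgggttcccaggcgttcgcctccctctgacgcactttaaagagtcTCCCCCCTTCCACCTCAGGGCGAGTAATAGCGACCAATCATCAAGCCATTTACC
Dlx1: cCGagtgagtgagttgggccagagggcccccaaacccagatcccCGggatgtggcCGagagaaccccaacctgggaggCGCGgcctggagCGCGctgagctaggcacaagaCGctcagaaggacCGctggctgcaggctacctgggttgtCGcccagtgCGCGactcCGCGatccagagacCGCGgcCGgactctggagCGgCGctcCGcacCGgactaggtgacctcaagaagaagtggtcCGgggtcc
Dlx2: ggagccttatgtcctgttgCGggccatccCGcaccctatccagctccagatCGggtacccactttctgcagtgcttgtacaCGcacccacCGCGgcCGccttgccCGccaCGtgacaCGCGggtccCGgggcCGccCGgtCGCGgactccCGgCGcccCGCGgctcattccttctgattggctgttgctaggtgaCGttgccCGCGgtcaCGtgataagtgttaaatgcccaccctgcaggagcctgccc
The Emx2, Dlx1 and Dlx2 windows held 24, 22 and 24 CG dinucleotides, against a median of 6 over 32851 RefSeq promoter windows of the same length, and their GC contents were 67.2%, 68% and 66.4% against a median of 52.4%. The homeodomain motif TAATTA, searched on both strands, was in 4.84% of all windows and in none of these 3 (0 matches each). A match or its absence describes these letters only.

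The factors together were highest in WT library 1 and were low in both libraries numbered 2. Their summed level was 47.8 CPM in WT library 1 (95% exact Clopper-Pearson interval 44.8 to 50.9) and 7.08 CPM in WT library 2 (5.87 to 8.47). It was 29.4 CPM in library 1 labelled Lbx1Δ/Δ (26.9 to 32.1) and 3.98 CPM in library 2 labelled Lbx1Δ/Δ (3.08 to 5.05). Both libraries numbered 1 stood above both numbered 2, 6.75-fold within WT and 7.41-fold within the mutant label. By genotype the groups overlapped: the WT mean was 27.4 ± 28.8 CPM (SD, n = 2) and the mean under the mutant label 16.7 ± 18.0 CPM (SD, n = 2). The intervals cover counting error only, since each comes from the count and total of a single library. Reads were counted without molecular identifiers, which the intervals do not allow for. In RNA from pooled tissue, fewer cells of a type and less RNA per cell cannot be told apart.

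**Figure D1:**
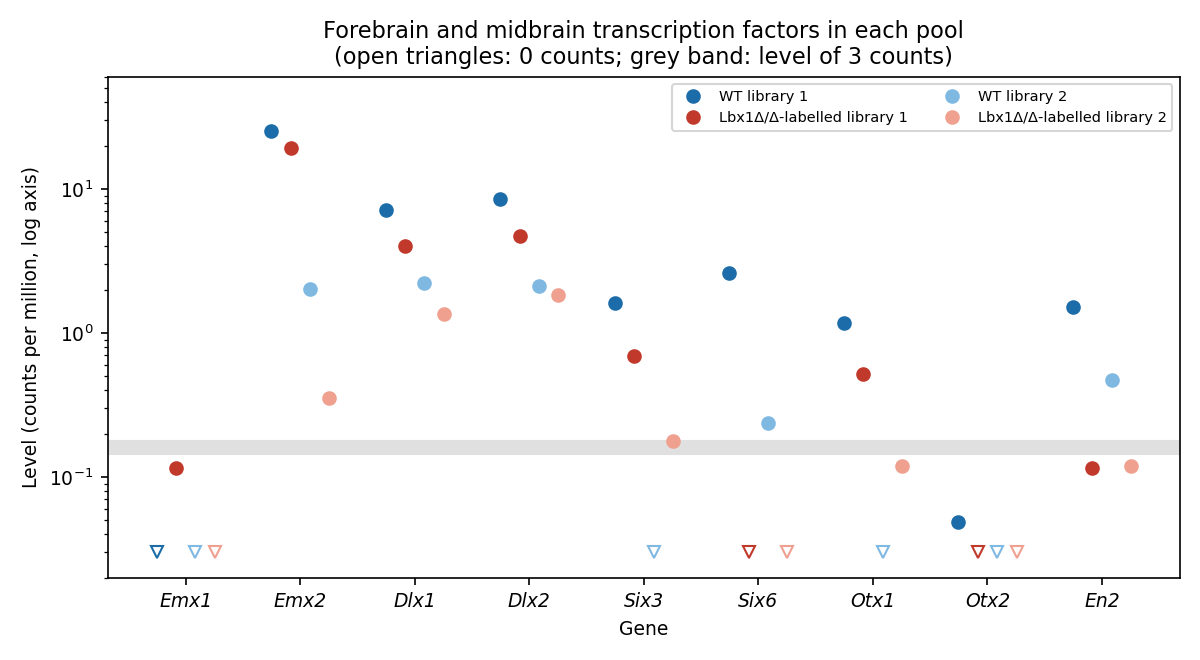
Level of each of the 9 factors in CPM (log axis) in each of the 4 libraries, with 1 point per library, open triangles for 0 counts and a grey band at the level of 3 counts. Emx2 sits at 25.2 and 19.3 CPM in the libraries numbered 1 and at 2.01 and 0.356 CPM in those numbered 2, and Otx2 and Emx1 are at or near 0 in all 4.

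Emx2, a factor of the dorsal telencephalon and of the urogenital ridge, had the most counts of the group in both libraries numbered 1. It had 518 counts (25.2 CPM) in WT library 1, 34 (2.01 CPM) in WT library 2, 333 (19.3 CPM) in library 1 labelled Lbx1Δ/Δ and 6 (0.356 CPM) in library 2 labelled Lbx1Δ/Δ. The libraries numbered 1 were high in both genotypes, and the lowest library was number 2 of the mutant label. The ratio of number 1 to number 2 was 12.6-fold within WT and 54.2-fold within the mutant label. Emx2 made up 52.7% and 65.6% of the group's counts in the libraries numbered 1 of WT and the mutant label, and 28.3% and 8.96% in those numbered 2. The other 8 factors without it still summed to 22.6 and 10.1 CPM in the libraries numbered 1 and to 5.07 and 3.62 CPM in those numbered 2. Emx1, its paralogue in the cerebral cortex, had 2 counts in library 1 labelled Lbx1Δ/Δ and 0 in the other 3 libraries.

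Dlx1 and Dlx2, neighbouring genes that drive the differentiation of forebrain GABAergic neurons, were detected in every library. Dlx1 had 146 counts (7.09 CPM) in WT library 1, 38 (2.24 CPM) in WT library 2, 69 (4.0 CPM) in library 1 labelled Lbx1Δ/Δ and 23 (1.36 CPM) in library 2 labelled Lbx1Δ/Δ. Dlx2 had 176 counts (8.55 CPM), 36 (2.12 CPM), 81 (4.70 CPM) and 31 (1.84 CPM) in the same order. Both genes took the same order, with WT library 1 first and library 2 labelled Lbx1Δ/Δ last, and the counts of Dlx2 were 0.947 to 1.35 times those of Dlx1. Within WT, number 1 stood above number 2 by 3.16-fold for Dlx1 and 4.03-fold for Dlx2, and within the mutant label by 2.93-fold and 2.55-fold.

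Six3 and Six6, factors of the anterior forebrain and eye, were near the limit of detection outside WT library 1. Six3 had 33 counts (1.60 CPM) in WT library 1, 0 in WT library 2, 12 (0.696 CPM) in library 1 labelled Lbx1Δ/Δ and 3 (0.178 CPM) in library 2 labelled Lbx1Δ/Δ. It was at least 9.06-fold lower in WT library 2 than in WT library 1, with the 0 set to 3 counts. Six6 had 54 counts (2.62 CPM) in WT library 1 and 4 (0.236 CPM) in WT library 2, and 0 in both libraries labelled mutant. Six6 thus did not overlap between genotypes, but its level in WT library 2 was within 1.33-fold of the limit set by 3 counts in library 2 labelled Lbx1Δ/Δ. Between the libraries numbered 1, it was at least 15.1-fold lower in the one labelled mutant.

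Otx1, a factor of the forebrain and midbrain, had 24 counts (1.17 CPM) in WT library 1, 0 in WT library 2, 9 (0.522 CPM) in library 1 labelled Lbx1Δ/Δ and 2 (0.119 CPM) in library 2 labelled Lbx1Δ/Δ. En2, a factor of the midbrain and anterior hindbrain, had 31 counts (1.51 CPM) and 8 (0.472 CPM) in WT libraries 1 and 2 and 2 counts in each library labelled mutant (0.116 and 0.119 CPM). Otx1 followed the numbers, whereas both WT libraries stood above both libraries labelled mutant for En2. Otx2, which specifies forebrain and midbrain, had 1 count in WT library 1 and 0 elsewhere. Its counts are split over 6 RefSeq transcripts, and 61.3% of 7924 genes with several transcripts had under 10 counts in total, against 41.3% of 17047 genes with a single one. Pax6, a factor of neural tube progenitors, has 8 transcripts and 0 counts in all 4 libraries, so the values of Otx2 cannot be read as its level.

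Of the 9 factors, 5 (Emx2, Otx1, Six3, Dlx1 and Dlx2) were higher in both libraries numbered 1 than in both numbered 2, against 24.4% of 16738 genes with at least 1 count. By genotype, 2 (Six6 and En2) were higher in both WT libraries than in both labelled mutant, against 9.52% of the same genes. Per kilobase of the matching GENCODE transcript, the level in WT library 1 was 8.63 CPM per kilobase for Emx2, 3.46 for Dlx2, 1.73 for Dlx1, 0.655 for Six6, 0.436 for Six3, 0.426 for En2 and 0.418 for Otx1. The last 3 of these came from 24 to 33 counts each and do not differ beyond counting error. In library 2 labelled Lbx1Δ/Δ the order was another, with 0.744 CPM per kilobase for Dlx2, 0.332 for Dlx1 and 0.122 for Emx2.

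The comparison of number 2 with number 1 asked how far the factors differed between the numbered pools once the genotype label was taken into account. Only 4 factors passed the filter on low counts (Emx2, Six3, Dlx1 and Dlx2), and Six3 passed it through the libraries numbered 1 alone, so that it had to differ. Emx2, Dlx1 and Dlx2, which had 10 counts or more in at least 3 libraries, fell in number 2, where 17.8% of the 10757 tested genes were called lower and 17.8% higher (35.6% in all, edgeR's quasi-likelihood test, Benjamini-Hochberg adjusted p under 0.05). The fitted log2 difference was −4.33 for Emx2 (SE 0.32, edgeR adjusted p = 1.09e-07), and −3.65 or −5.76 without either library labelled mutant or either WT library. It was −1.63 for Dlx1 (SE 0.33, edgeR adjusted p = 0.00101) and −1.71 for Dlx2 (SE 0.32, edgeR adjusted p = 0.000511). For Six3, given as a description only, it was −3.55, and −1.95 without WT library 1. Without either library labelled mutant it was −7.88, a value that rests on the prior count because WT library 2 is at 0. The direction held in both genotypes for Emx2, Dlx1 and Dlx2. Of all tested genes, 5.02% had a log2 difference of −1 or below, and the median was 0.00014.

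**Figure D2:**
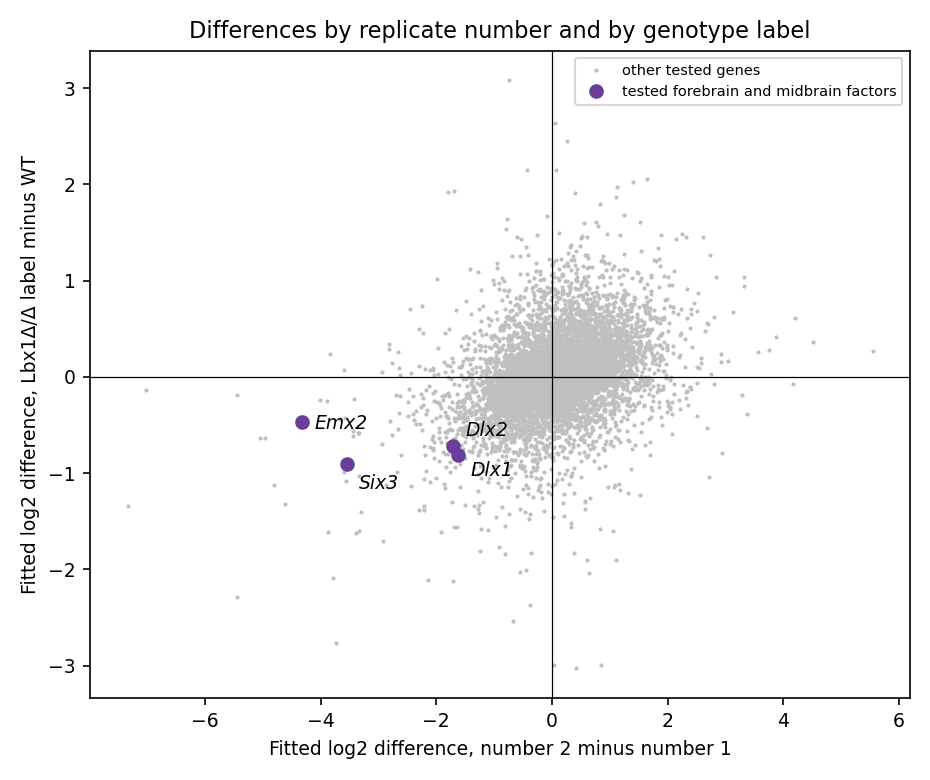
Fitted log2 difference of number 2 minus number 1 (horizontal axis) against that of the Lbx1Δ/Δ label minus WT (vertical axis) for 10757 tested genes, with 1 point per gene. The 4 tested factors lie at −1.63 to −4.33 on the horizontal axis and at −0.47 to −0.91 on the vertical axis.

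The comparison of genotype labels asked whether the factors differed between WT neural tubes and those labelled Lbx1Δ/Δ, and none of the 4 tested passed it. The fitted log2 difference of the mutant label minus WT was −0.47 for Emx2 (SE 1.78), −0.91 for Six3 (SE 1.59), −0.81 for Dlx1 (SE 0.80) and −0.72 for Dlx2 (SE 0.83), all with an edgeR adjusted p of 0.9998. Of 10757 genes, 0 passed (0%), 55 had an unadjusted p below 0.05, and DESeq2 also called 0. The count was not 0 in a fit that also held the replicate number, which is given below with the processing. None of the 4 tested factors was called in that fit either. Within number 1, the libraries labelled mutant were lower than WT by 1.30-fold for Emx2, 1.77-fold for Dlx1 and 1.82-fold for Dlx2. Within number 2, they were lower by 5.63-fold, 1.64-fold and 1.16-fold. The 2 libraries of WT lay further apart than WT and the mutant label did within a number for all 3 genes. Without WT library 1 the fitted differences turned to 2.29 for Emx2, 0.26 for Dlx1 and 0.62 for Dlx2, and without library 2 labelled Lbx1Δ/Δ that of Emx2 was 0.50. These p-values reflect only how far the pools of a genotype lay apart, and those pools differ in number too.

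Of 5 noncoding RNAs listed, Dlx6os1 belongs by name to the paralogue Dlx6 and the others to the factors. Emx2os, Dlx1as and Dlx6os1 (3 of the 5) were higher in both libraries numbered 1 than in both numbered 2. The share over 16738 genes with at least 1 count was 24.4%. Six3os1 and Otx2os1 overlapped between the numbers. Emx2os, transcribed divergently from the upstream sequence shown above, had 186, 16, 144 and 3 counts in WT libraries 1 and 2 and libraries 1 and 2 labelled Lbx1Δ/Δ. These were 0.359, 0.471, 0.432 and 0.5 times the counts of Emx2, so the ratio of the pair varied far less than either RNA. Emx2os fell in number 2 by 4.02 on the log2 scale (SE 0.43, edgeR adjusted p = 3.03e-06). The spans of Emx2 and Emx2os do not overlap in the RefSeq table. Dlx1as, which overlaps Dlx1 on the opposite strand, had 54, 2, 21 and 3 counts. It passed the filter through the libraries numbered 1 alone, so its fall was fixed by the filter and is a description only. The strand setting of the counting is not given in the sources used here, so reads of Dlx1 and Dlx1as, or of Six3 and the overlapping Six3os1 (11, 3, 3 and 1 counts), cannot be told apart with certainty. Dlx6os1 had 4, 0, 3 and 0 counts, at or near the limit that 3 counts set. Otx2os1 had 2 counts in library 1 labelled Lbx1Δ/Δ alone. Six3os1 has 8 transcripts and Dlx6os1 has 3, so their counts are uncertain.

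**Figure D3:**
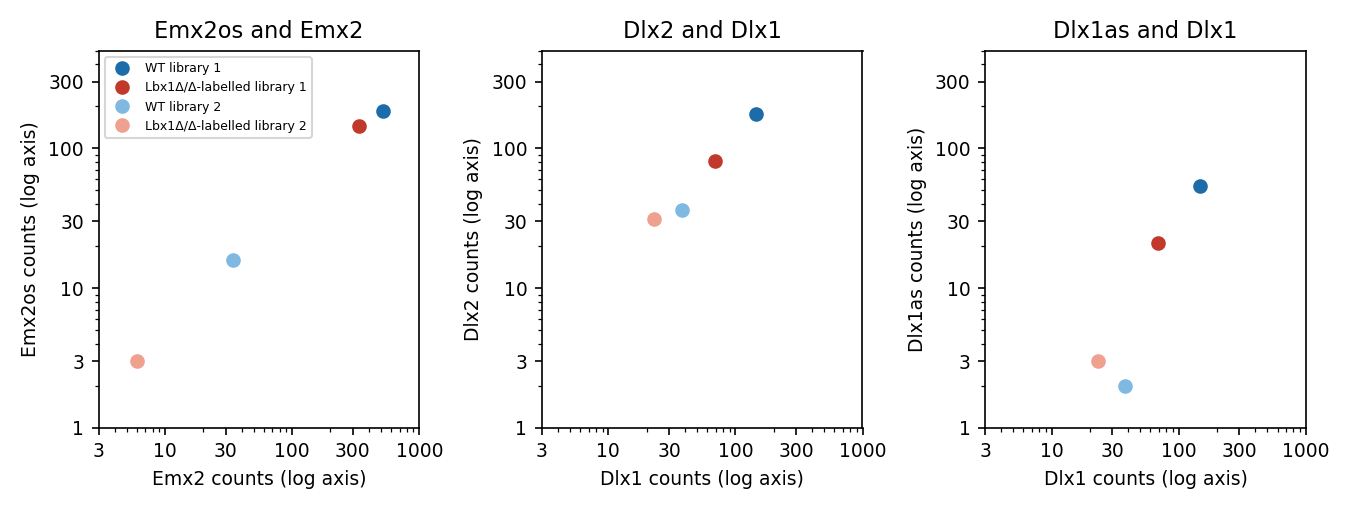
Counts of Emx2os against Emx2, of Dlx2 against Dlx1 and of Dlx1as against Dlx1 (log axes), with 1 point per library. Emx2os lies at 0.359 to 0.5 times Emx2 in all 4 libraries, and Dlx2 at 0.947 to 1.35 times Dlx1.

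Some other genes listed for the forebrain were close to 0. Others of the same lists, such as Sp8 and Foxd1 (mean 20.2 and 62.6 CPM), were not and are given below. Of the low genes, Fezf2, Nkx2-1, Vax1, Vax2 and Nkx2-4 were named after their values were seen. Fezf2 of the cortex and Rax of the eye field and hypothalamus each had 6 counts in WT library 1 and 0 elsewhere. Nkx2-1, a factor of the ventral forebrain and also of thyroid and lung, had 15 counts in WT library 1 and 0 elsewhere. Hesx1, a factor of the anterior forebrain and pituitary, had 14, 0, 4 and 2 counts, and Fezf1 had 2, 0, 2 and 0. Vax1, Vax2 and Nkx2-4 had 0 counts in all 4 libraries. WT library 1 was thus the pool with most of these counts, and WT library 2 had none of the genes Fezf2, Rax, Nkx2-1, Hesx1 and Fezf1. All 8 genes with several transcripts in the other rostral lists had under 10 counts in total (100%), against 6 of 22 with a single one (27.3%).

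Of 12 other telencephalic genes 6 were tested between numbers, and 1 rose and 1 fell in number 2. Lhx8, which marks cholinergic neurons of the ventral forebrain as well as the jaw mesenchyme, fell, with 48, 6, 19 and 10 counts. Neurod6, a factor of differentiating neurons, rose. Sp8, Gsx2, Dmrta2 and Wnt8b did not pass, with log2 differences of −0.17, 0.48, 0.60 and 1.13. Of 10 other genes of the diencephalon and eye 2 were tested. Gbx2, which marks the thalamus, anterior hindbrain and spinal cord, rose (log2 difference 1.09), and Foxd1, found in the hypothalamus and in mesenchyme, fell (−1.48). Of 8 other genes of the midbrain and isthmus 5 were tested. Pax5, listed here for the isthmus, rose (log2 difference 0.97, edgeR adjusted p = 6.73e-05). En1, which also marks V1 spinal interneurons, fell (−0.43, edgeR adjusted p = 0.0489), and so did Pitx3, also expressed in lens and muscle, with 137, 38, 105 and 13 counts (edgeR adjusted p = 0.000259). Wnt1 and Tal2 did not pass. The median log2 differences of the tested genes were 0.54, −0.19 and −0.43 for the 3 lists, against 0.00014 over all tested genes, and the genes called went in both directions. Gbx2 and En1 also mark the cord, so these lists do not measure brain tissue alone. Expression of Pax5, Gsx2 and Wnt1 in the cord was not examined.

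Of 10 paralogues of the factors 7 were tested, and all 7 were lower in number 2. They include En1, described above with the midbrain genes, and Dlx6, which had 66, 2, 15 and 4 counts and passed the filter through the libraries numbered 1 alone, so that it had to differ. Six2, a factor of mesenchyme and kidney precursors, had 1475, 110, 592 and 46 counts (log2 difference −3.56). The log2 differences of Six4 and Six5 were −0.92 and −0.74, and that of Dlx3 was −1.69. Six4 has 2 transcripts, so its counts are uncertain. The summed level of the 10 was 344 and 274 CPM in the libraries numbered 1 and 190 and 143 CPM in those numbered 2.

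Genes listed for facial mesenchyme, and some for choroid plexus, the secretory epithelium of the brain ventricles, were also higher in the libraries numbered 1. Whether the mesenchyme counts came from the face or from elsewhere was not tested. The 9 genes of pharyngeal arch and facial mesenchyme, of which 8 were tested and all 8 were lower in number 2, summed to 165 and 106 CPM in the libraries numbered 1 of WT and the mutant label and to 50.4 and 24.1 CPM in those numbered 2. All 9 were detected, and Dlx3 and Dlx4 stand in this list and among the paralogues. Some of the 8, such as Barx1, passed the filter through the libraries numbered 1 alone, so that they had to differ. Alx4 had 1562, 288, 826 and 91 counts in WT libraries 1 and 2 and libraries 1 and 2 labelled Lbx1Δ/Δ, Msx2 had 1100, 441, 682 and 278, and Hand2 had 187, 26, 118 and 2. The 7 choroid plexus genes summed to 198 and 61.4 CPM in the libraries numbered 1 and to 37.3 and 13.8 CPM in those numbered 2, and 3 of the 6 tested fell. Kl was called higher, with 11, 18, 0 and 23 counts, but passed the filter through the libraries numbered 2 alone. Ttr, the transthyretin of choroid plexus and also of liver, had 2920, 263, 622 and 15 counts, Clic6 had 542, 58, 139 and 19, Aqp1 did not pass, and Folr1, a gene with several transcripts, was at 0. The part of these tissues in the levels of the 9 factors was not tested.

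For the urogenital ridge, which also expresses Emx2, the 7 genes summed to 118 and 93.2 CPM in the libraries numbered 1 and to 135 and 127 CPM in those numbered 2. Pax8, which is also a factor of spinal and hindbrain neurons, rose (log2 difference 1.31, edgeR adjusted p = 1.97e-07). It had 43.0 and 39.0 CPM in the libraries numbered 1 and 102.6 and 103.5 CPM in those numbered 2, a larger difference than that of the sum, so the other 6 genes together were lower in number 2. Wt1 and Osr1 fell (−2.21 and −1.10, edgeR adjusted p = 7.83e-05 and 2.12e-05). Wt1 had 21.2, 7.61, 10.3 and 0.831 CPM in WT libraries 1 and 2 and numbers 1 and 2 of the mutant label, the order of libraries that Emx2 took, and Gata4, a gene with several transcripts, was at 0. Of 8 genes of lens and pigment cells 3 were tested. Dct and Pmel, also markers of melanoblasts, fell (−1.51 and −1.07), Mip did not pass, and Cryaa, Cryab, Cryba1 and Tyrp1, each with several transcripts, were at 0. The part of these cells in the levels of the factors was not tested.

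Most tested Hox genes and all 3 tested pan-neuronal genes went the other way. Of 15 Hox genes of paralogue groups 1 to 5, which mark the hindbrain and cervical cord, 14 were tested and 9 rose in number 2, and of 12 in groups 6 to 9, which mark brachial and thoracic levels, 11 were tested and 9 rose. None of either list fell (0 genes). Hoxb8 had 285, 671, 358 and 784 CPM in WT libraries 1 and 2 and libraries 1 and 2 labelled Lbx1Δ/Δ, and Hoxb5, Hoxa5, Hoxc4, Hoxb9 and Hoxc8 rose by 0.99, 0.62, 0.30, 0.69 and 0.25 on the log2 scale. The summed level of groups 6 to 9 was 1411 and 1741 CPM in the libraries numbered 1 and 2413 and 2899 CPM in those numbered 2. All 3 tested pan-neuronal genes (Tubb3, Stmn2 and Elavl3) rose, by 0.82 to 0.97. Of 5 tested progenitor genes Fabp7 rose by 0.78, and Sox2 and Nes, with 0.18 and −0.14, did not pass.

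**Figure D4:**
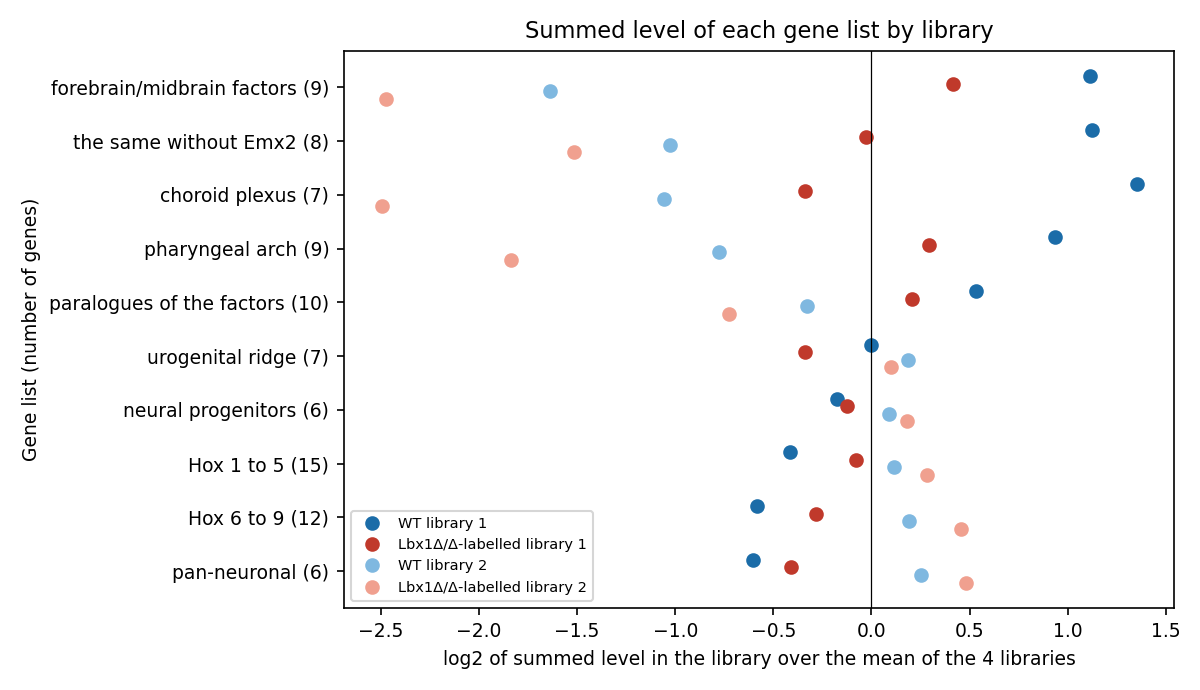
Summed level of each gene list in each library, as log2 of the level over the mean of the 4 libraries, with 1 point per library. The 9 factors, choroid plexus and pharyngeal arch lists have both libraries numbered 1 to the right of both numbered 2, and the Hox and pan-neuronal lists have them to the left.

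Outside the lists, the tested genes whose profile over the 4 libraries lay closest to the mean profile of Emx2, Six3, Dlx1 and Dlx2 included Pnlip, Hbb-bh1, Tbx5 and AW549542. Likeness was the root mean square difference of mean-centred log2 CPM over 4 libraries, which was 0.122, 0.246, 0.32 and 0.328 for these genes in turn. Pnlip, a pancreatic lipase, had 36, 2, 14 and 2 counts. Hbb-bh1, an embryonic globin of primitive red cells, had 16872, 2287, 11020 and 1717 counts. Tbx5, a factor of heart and forelimb, had 102, 5, 53 and 8 counts. All of these genes were picked for closeness to the profile made from Emx2, Six3, Dlx1 and Dlx2. Their order, highest in WT library 1 and second in library 1 labelled Lbx1Δ/Δ, thus followed from the choice. Pnlip and Tbx5, like Six3 within the profile, passed the filter through the libraries numbered 1 alone. With 4 libraries such a likeness is a description of these pools only.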

How the data were processed

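RNA-seq was analysed from 2 WT and 2 Lbx1Δ/Δ-labelled pools of E12.5 neural tubes. Per the submitters' processing notes, reads were processed with TopHat2 2.1.1 and featureCounts on build mm9. No annotation, strand setting or rule for shared reads is given in the sources used here. The authors deposited raw counts for each RefSeq accession, not normalized, and depth was 16853984 to 20579803 counts per library.

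Of 41411 accessions, 41218 were named from a RefSeq gene table of GRCm38.p6 and 97 from GENCODE M21, and 96 kept their accession as name. Counts were summed per symbol and divided by the library total (CPM). GRCm38 is not the authors' build and served for names, neighbours, transcript lengths and RefSeq upstream sequences alone.

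Genes with low counts were removed with filterByExpr (minimum count 10, minimum total 15), leaving 10757. TMM scaling and edgeR 4.0.16 quasi-likelihood tests (glmQLFit, glmQLFTest, R 4.3.3) were two-sided with Benjamini-Hochberg adjustment over all tested genes. Genotype was tested with no covariate, and number with genotype as a covariate. The tests were tested on simulated data. Alternatives were RLE scaling, library totals, DESeq2 1.42.0, other filters, the replicate block and leaving out each library.

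The 9 genes and the 13 other gene lists were chosen with earlier results of these data known. Named were all 9, the 5 most abundant genes of each other rostral list, the 3 most abundant of the rest, all antisense RNAs, Lbx1 and the 5 genes most alike. Fezf2, Tbr1, Nkx2-1, Vax1, Vax2, Nkx2-4, Pax6, Lhx8, Six2, Dlx3, Dlx4, Dlx6, Barx1, Kl, Folr1, Gata4, Cryaa, Cryab, Cryba1 and Tyrp1 were named after their values were seen. Some genes that the rule picked are not reported here.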

Additional observations from a re-analysis of the deposited data

How the results depend on the processing

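The count of 0 genes called between genotype labels was also 0 under RLE scaling, library totals, DESeq2, both other filters and without each library in turn, but was 92 (29 higher, 63 lower in the libraries labelled mutant) with the replicate block. The labels do not pair the numbers. Libraries of the same number deviated together from their genotype means (r = 0.623 over 10757 genes for number 1 and for number 2, equal by construction with 2 libraries a group). With the replicate block, 0 of the 4 tested factors were called, with log2 differences of −0.77 for Emx2, −0.59 for Six3, −0.79 for Dlx1 and −0.61 for Dlx2. The 3833 genes called between numbers ranged from 2603 (DESeq2) to 3979 (no filter), and Emx2, Dlx1 and Dlx2 were called lower in number 2 in each fit with a test. For Six3, DESeq2 gave no adjusted p, and a filter of CPM above 1 in 2 libraries removed it. Leaving out a library left no residual degrees of freedom in the fit of number, which then gave values but no test.

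The log2 ratio of the summed level of the factors between numbers was −2.80, −1.91 without Emx2 and −1.25 as a mean of log2(CPM + 0.5). Between genotype labels it was −0.71, and leaving out each library gave −2.79 to 1.24, positive without WT library 1 or library 2 labelled mutant. Leaving out each library gave fitted genotype differences of −5.26 to 2.29 for Emx2, −1.80 to 0.26 for Dlx1, −1.57 to 0.62 for Dlx2 and −2.20 to 5.92 for Six3, whose highest value is against WT library 2 at 0 counts and depends on the prior count. The cause was not tested. Depth limited Emx1, Otx1, Six3, Six6 and En2, at 54 counts or fewer in every library.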

Other observations

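Neurod6, listed here as a telencephalic gene because it marks cortical neurons, was higher in both libraries numbered 2, where 5 of the 9 factors were lower in both. It had 68 counts (3.30 CPM) in WT library 1, 1436 (84.7 CPM) in WT library 2, 12 (0.696 CPM) in library 1 labelled Lbx1Δ/Δ and 1810 (107 CPM) in library 2 labelled Lbx1Δ/Δ. Both libraries numbered 2 were high, with a fitted log2 difference of 5.54 between numbers (SE 0.33, edgeR adjusted p = 1.31e-08), whereas the cortical gene Fezf2 was at 6, 0, 0 and 0 counts and Emx1 at 0, 0, 2 and 0. Tbr1, a factor of cortical and other glutamatergic neurons, had 8, 19, 8 and 2 counts. Fezf2 and Tbr1 were named after their values were seen.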
